A study of Mus musculus with 10 samples.

Results

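The genes described are 7 hormone receptors of the ovary, taken by symbol: Fshr and Lhcgr, the receptors of the gonadotropins FSH and LH; the steroid receptors Esr1, Esr2 and Nr3c1; and Prlr and Ghr, the receptors of prolactin and growth hormone. All 7 were matched to an Ensembl identifier among the 22891 genes of the table, and all 7 passed the filter on low values that left 15629 genes for testing. RNA had been sequenced from whole ovaries of 3-week-old C57/Bl6/N;129SvEv7 mice that had received no hormone stimulation. There were 5 libraries labelled control and 5 labelled Uba3 cKO, for a conditional knockout of Uba3, which encodes the catalytic subunit of the NEDD8-activating enzyme. The labels name no Cre driver, no deleted exons and no alleles of the controls. They do not tie each ovary to its own animal, so a p-value covers the scatter of these libraries, which may be technical. The title of the series places the comparison in work on neddylation, mitochondrial transcription and oocyte quality.

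FSH from the pituitary acts on granulosa cells, where its receptor raises cyclic AMP and drives follicle growth and aromatase. LH acts on theca cells of the young ovary to drive androgen synthesis, and granulosa cells gain its receptor only as follicles near ovulation. Estradiol made in the follicle acts through Esr2, the main estrogen receptor of granulosa cells, and through Esr1, which is known from theca and interstitial cells. Prolactin and growth hormone signal through the kinase JAK2 and STAT5, and glucocorticoids through Nr3c1, a nuclear receptor held by chaperones until it binds its ligand.

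The start regions of Fshr, Lhcgr and Esr2 are shown because Esr2 and Lhcgr had the highest and lowest level per length, and because Fshr and Lhcgr are neighbours on chromosome 17. RefSeq places 0 protein-coding genes and 2 pseudogenes between them. Each line gives the 250 bases before the annotated transcript start in RefSeq (build GRCm38.p6), 5′ to 3′ on the strand of the gene. Capitals mark the E-box CACGTG, a site of basic helix-loop-helix factors, in Fshr and Esr2, and the GC box GGGCGG, a site of Sp1-type factors, in Lhcgr. The annotated Lhcgr start was not found within GENCODE transcripts of the gene, unlike those of Fshr and Esr2.
Fshr, chr17:89200676-89200925, minus strand: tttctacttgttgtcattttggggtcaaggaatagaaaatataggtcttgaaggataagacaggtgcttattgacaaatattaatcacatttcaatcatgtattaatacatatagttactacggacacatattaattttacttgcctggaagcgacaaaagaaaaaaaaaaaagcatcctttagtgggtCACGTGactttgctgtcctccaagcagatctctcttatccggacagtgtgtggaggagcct
Lhcgr, chr17:88792015-88792264, minus strand: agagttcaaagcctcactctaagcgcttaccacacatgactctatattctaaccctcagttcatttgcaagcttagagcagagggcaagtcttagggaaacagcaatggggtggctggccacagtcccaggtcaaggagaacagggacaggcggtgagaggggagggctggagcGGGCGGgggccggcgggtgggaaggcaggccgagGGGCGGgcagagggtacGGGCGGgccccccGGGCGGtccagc
Esr2, chr12:76177260-76177509, minus strand: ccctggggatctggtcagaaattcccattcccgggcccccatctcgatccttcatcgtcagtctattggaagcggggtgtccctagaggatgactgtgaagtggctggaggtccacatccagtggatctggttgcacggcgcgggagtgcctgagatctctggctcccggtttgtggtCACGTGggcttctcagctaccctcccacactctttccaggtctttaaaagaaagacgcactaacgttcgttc

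The windows differ in composition. The Fshr window was 36.8% G or C, higher than 6.74% of the 32851 RefSeq start regions, and the Lhcgr window 63.2%, higher than 79.2% of them. An E-box stood 61 to 56 bases before the start of Fshr and 72 to 67 bases before that of Esr2, and 6.02% of all windows hold this palindrome. Lhcgr had 4 GC boxes between 76 and 7 bases before its start. GGGCGG on either strand, searched as GGGCGG and CCGCCC, is in 32.7% of all windows. The 6 receptors outside chromosome 18 had 10 such windows in all, since Esr1, Ghr and Prlr have more than 1 annotated start. Of these 10, the TATA box TATAAA or its complement TTTATA was in 1, a Ghr window, against 12.4% of all windows, and CCAAT or ATTGG in 5, against 33.8%. These matches describe letters in a window and were not related to the levels.

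The ovaries had the transcripts of follicles in both groups. The 8 granulosa markers averaged 13.02 ± 0.057 in controls and 13.09 ± 0.12 in the libraries labelled Uba3 cKO on the deposited log2 scale; pairs of values with ± are mean and SD of control and then Uba3 cKO libraries, n = 5 each, unless said otherwise. For 9 oocyte markers the values were 10.50 ± 0.30 and 10.45 ± 0.36, and for 8 theca and interstitial markers 9.21 ± 0.33 and 9.18 ± 0.21. Of 4 corpus luteum markers, Akr1c18, a progesterone-degrading enzyme, lay under the filter at 2.05 and Ptgfr, the prostaglandin F receptor, just passed it at 3.56, whereas Hsd17b7 stood at 9.06 and Parm1 at 9.0. The 3 tested markers averaged 7.20 ± 0.11 and 7.21 ± 0.092. Uba3 had levels of 10.12 ± 0.18 and 10.12 ± 0.069 (exact two-sided permutation p = 1). With the deleted exons unnamed, this whole-gene value does not check the labels. Library medians lay between 6.29 and 6.44, and depth is unknown because the table holds no counts.

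No receptor passed the test over all genes. By limma 0 of 7 receptors had an adjusted p under 0.05, as did 0 of 15629 genes (0% called). At an unadjusted p under 0.05 there were 0 receptors, against 280 genes (1.79%). The groups overlapped for every receptor, and lay apart in 50 of the tested genes (0.320%). The mean under the Uba3 cKO label was the lower one for 5 receptors (Fshr, Lhcgr, Esr1, Esr2 and Ghr), beside 49.8% of all genes. With 5 against 5 samples the smallest exact permutation p is 0.00794. In whole ovaries, fewer cells of a type and less RNA per cell cannot be told apart.

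**Figure D1:**
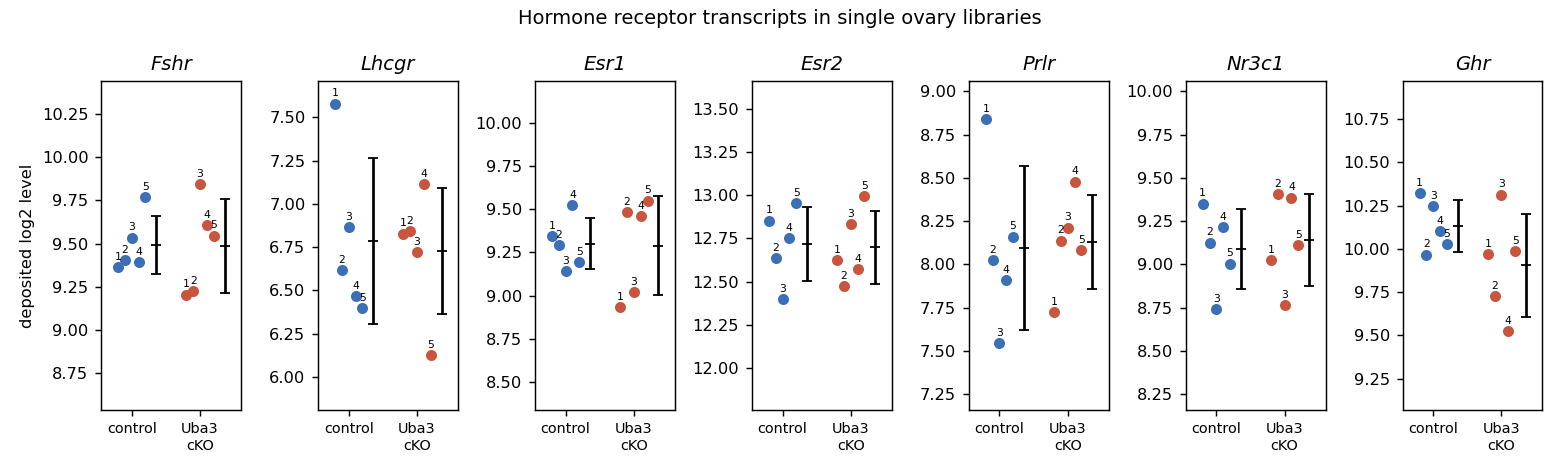
Deposited log2 level of each receptor (vertical axis, every panel spanning the same height) in the 5 control and 5 Uba3 cKO libraries. Points carry the replicate number, and the bars give the group mean and SD. Groups overlap in all 7 panels, and control replicate 1 is the highest library for Lhcgr, Prlr and Ghr.

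The FSH receptor had the closest group means of the 7. Fshr (ENSMUSG00000032937) stood at 9.37, 9.40, 9.54, 9.39 and 9.77 in control replicates 1 to 5. In Uba3 cKO replicates 1 to 5 it stood at 9.21, 9.23, 9.85, 9.61 and 9.55. The groups overlapped, and both the lowest library (replicate 1) and the highest (replicate 3) carried the Uba3 cKO label. The difference was -0.0069 (standard error 0.12), with a 95% interval that bounds the fold between 0.828 and 1.20 (exact permutation p = 0.960; limma adjusted p = 1).

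The LH receptor was the most variable of the 7. Lhcgr (ENSMUSG00000024107) stood at 7.58, 6.62, 6.86, 6.47 and 6.40 in control replicates 1 to 5. Its values in Uba3 cKO replicates 1 to 5 were 6.83, 6.84, 6.72, 7.11 and 6.13. Control replicate 1 was the highest of the 10 libraries and Uba3 cKO replicate 5 the lowest, a span of 2.74-fold, with the remaining libraries mixed between them. The SD over the 10 libraries was 0.403, above that of 96.7% of the 1254 genes with a mean within 0.5 of its own, whose median SD was 0.182. The group difference was -0.059 (standard error 0.22), with the fold between 0.687 and 1.34 (exact permutation p = 0.817; limma adjusted p = 1). It was 0.14 without control replicate 1 and 0.092 without Uba3 cKO replicate 5. Control replicate 1 also had the highest erythroid marker mean, 9.06, and the highest theca and interstitial mean, 9.77; their part in the Lhcgr value was not tested.

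The balance of the gonadotropin receptors within a library does not move with a shift common to all its genes. Fshr exceeded Lhcgr by 2.71 ± 0.58 and 2.76 ± 0.48 log2 units, with length not taken into account (exact two-sided permutation p = 0.873; adjusted over 2 balances 0.968). It ran from 1.79 in control replicate 1 to 3.42 in Uba3 cKO replicate 5. The difference of the group means, 0.052, was -0.18 without control replicate 1, -0.040 without Uba3 cKO replicate 3 and -0.11 without Uba3 cKO replicate 5.

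No gene downstream of the gonadotropin receptors passed either. Of 17 genes of cyclic AMP signalling, 0 had an unadjusted p under 0.05, 11 had a higher Uba3 cKO mean than control mean, and the median difference was 0.011 beside 0.00034 for all genes. Adcy3, an adenylyl cyclase, stood at 9.01 ± 0.28 and 9.18 ± 0.14, and Prkar2b, a regulatory subunit of protein kinase A, at 13.39 ± 0.28 and 13.48 ± 0.24. Of 15 gonadotropin-regulated follicle genes 0 had p under 0.05, and 9 had the higher mean (median difference 0.031). Hsd17b1, which makes estradiol from estrone, stood at 13.10 ± 0.17 and 13.21 ± 0.13, and Grb14, a receptor adaptor, at 13.15 ± 0.23 and 12.96 ± 0.54.

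Esr2 was the more abundant estrogen receptor per length, as given further on. Esr2 (ENSMUSG00000021055) stood at 12.85, 12.64, 12.40, 12.75 and 12.95 in control replicates 1 to 5. In Uba3 cKO replicates 1 to 5 the levels were 12.62, 12.47, 12.83, 12.57 and 13.00. Control replicate 3 was lowest and Uba3 cKO replicate 5 highest, and the groups spanned nearly the same range. The difference was -0.020 (standard error 0.12), a fold between 0.828 and 1.17 (exact permutation p = 0.897; limma adjusted p = 1).

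Esr1 had a larger SD among the Uba3 cKO libraries, as did Fshr, Nr3c1 and Ghr, whereas Lhcgr, Esr2 and Prlr did not. Esr1 (ENSMUSG00000019768) had control values of 9.35, 9.29, 9.14, 9.52 and 9.19 in replicates 1 to 5. The Uba3 cKO values were 8.93, 9.48, 9.02, 9.46 and 9.55. Uba3 cKO replicates 1 and 3 were below every control and replicate 5 above every control, so that the SD was 0.288 against 0.147 in controls; this difference in spread was not tested. The means differed by -0.010 (standard error 0.12), a fold between 0.824 and 1.20 (exact permutation p = 0.937; limma adjusted p = 1). Esr2 exceeded Esr1 by 3.42 ± 0.22 and 3.41 ± 0.36 log2 units, with length not taken into account (exact permutation p = 0.968, adjusted 0.968), with Uba3 cKO replicate 2 lowest at 2.99 and Uba3 cKO replicate 3 highest at 3.81.

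Among partners and targets of the estrogen receptors no gene passed. Of 11 coregulators 0 had an unadjusted p under 0.05, with 6 higher and 5 lower means and a median difference of 0.0011. Med1, a Mediator subunit that binds nuclear receptors, stood at 10.06 ± 0.12 and 9.99 ± 0.037, and Crebbp, a histone acetyltransferase, at 10.58 ± 0.12 and 10.48 ± 0.16. Among 9 tested estrogen-responsive genes 0 had p under 0.05 and 6 had the lower mean (median difference -0.0093). Npr2, the granulosa receptor of C-type natriuretic peptide, stood at 12.21 ± 0.11 and 12.30 ± 0.044. Myc, a growth-promoting transcription factor, stood at 11.08 ± 0.27 and 10.86 ± 0.34.

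The glucocorticoid receptor had overlapping groups. Nr3c1 (ENSMUSG00000024431) had levels of 9.35, 9.13, 8.74, 9.22 and 9.0 in control replicates 1 to 5. Under the Uba3 cKO label its levels were 9.03, 9.41, 8.77, 9.39 and 9.11. Control replicate 3 and Uba3 cKO replicate 3 were the lowest and Uba3 cKO replicates 2 and 4 the highest. The difference was 0.052 (standard error 0.14), a fold between 0.846 and 1.27 (exact permutation p = 0.746; limma adjusted p = 1). Of 6 tested chaperones and ligand-metabolising enzymes 0 had p under 0.05 (median difference -0.0043); Ptges3, the co-chaperone p23, stood at 12.09 ± 0.19 and 11.97 ± 0.082, and Fkbp4, an immunophilin of the receptor complex, at 12.80 ± 0.087 and 12.84 ± 0.063. Of 9 glucocorticoid-responsive genes 7 had the lower mean and 0 had p under 0.05 (median difference -0.037). Per1, a clock gene, stood at 9.28 ± 0.11 and 9.34 ± 0.11, and Ddit4, an inhibitor of mTOR signalling, at 10.04 ± 0.36 and 10.13 ± 0.043. Named for their p-values, they are the 2 members with the higher mean and run against the other 7.

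Among the pituitary hormone receptors, Ghr showed the largest difference of the 7. Ghr (ENSMUSG00000055737) stood at 10.32, 9.97, 10.25, 10.10 and 10.03 in control replicates 1 to 5. Its Uba3 cKO levels were 9.97, 9.73, 10.31, 9.53 and 9.99. Uba3 cKO replicates 2 and 4 were below every control, replicate 3 lay just under the highest control, and the groups overlapped. The level was 10.13 ± 0.15 and 9.90 ± 0.30, a difference of -0.23 (standard error 0.13) that did not pass (exact permutation p = 0.167; limma unadjusted p = 0.0936, adjusted p = 1). The 95% interval bounds the fold between 0.706 and 1.03. Without Uba3 cKO replicate 3 the unadjusted limma p was 0.00998 and the adjusted p remained 1 (difference -0.33). Without Uba3 cKO replicate 4 the difference shrank to -0.13, with an unadjusted limma p of 0.257.

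Prlr varied far more than its group means differed. Prlr (ENSMUSG00000005268) stood at 8.84, 8.03, 7.54, 7.91 and 8.16 in control replicates 1 to 5. The Uba3 cKO libraries had 7.72, 8.14, 8.21, 8.48 and 8.08. Both the highest and the lowest library were controls, replicates 1 and 3, a span of 2.45-fold. Its SD of 0.364 over the 10 libraries exceeded that of 96.1% of 1887 genes of like level. The difference was 0.031 (standard error 0.20), a fold between 0.754 and 1.38 (exact permutation p = 0.913; limma adjusted p = 1). It was -0.11 without control replicate 3 and 0.22 without control replicate 1.

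The JAK-STAT genes that serve prolactin and growth hormone had 0 of 16 members at an unadjusted p under 0.05, with 11 higher means and a median difference of 0.024. Ptpn6, a phosphatase of blood cells, stood at 5.46 ± 0.20 and 5.65 ± 0.22, and Ptpn11, the widely expressed phosphatase SHP2, at 11.82 ± 0.18 and 11.92 ± 0.075. Of 7 pituitary hormone genes listed, 1 was tested, Pomc, the precursor of ACTH, at 4.22 ± 0.14 and 4.19 ± 0.083, and the others are not analysed here. Among 17 other hormone receptors tested, 0 had p under 0.05, with 7 higher and 10 lower means (median difference -0.0070). Igf1r, the receptor of insulin-like growth factor 1, stood at 12.46 ± 0.11 and 12.36 ± 0.16, and Pgrmc1, a membrane-associated heme protein, at 11.24 ± 0.094 and 11.17 ± 0.033.

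**Figure D2:**
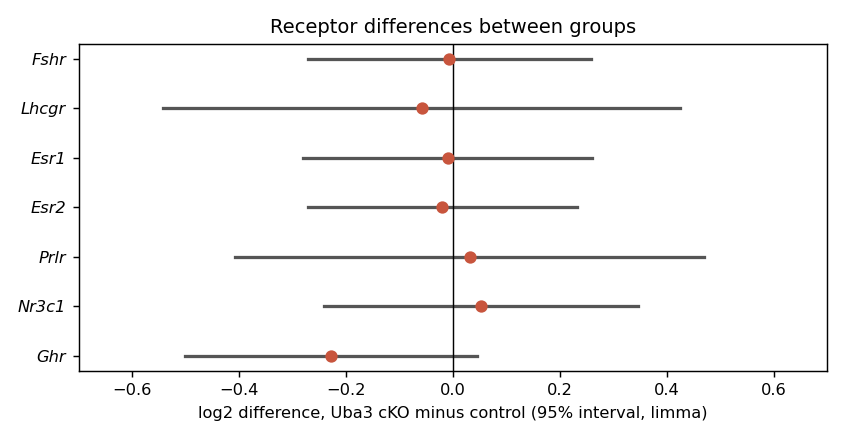
Log2 difference of each receptor, Uba3 cKO minus control (horizontal axis), as the point, with its 95% interval from limma as the line. All 7 intervals include 0, and Ghr lies farthest from it at -0.23.

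Levels of different receptors were compared per kilobase of the longest annotated transcript, as the deposited log2 value minus the log2 length in kilobases. Esr2 was highest at 10.96 ± 0.20 (SD over 10 libraries), above 97.3% of 15437 tested genes with a length, and 2.71 above the next receptor in the mean, with no overlap. Fshr followed at 8.25 ± 0.21 and Ghr at 7.96 ± 0.25; their ranges overlapped and Fshr was the higher in 9 of 10 libraries. Esr1 at 6.63 ± 0.22 and Nr3c1 at 6.43 ± 0.24 overlapped as well. Prlr, at 4.80 ± 0.36, and Lhcgr, at 3.98 ± 0.40, were the lowest and overlapped in range, although Prlr was higher in 10 of 10 libraries. Lhcgr lay above 16.7% of tested genes.

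The order holds only in part with other lengths. By mean, Esr2 was first and Prlr and Lhcgr last with the longest transcript, with the coding length and with all exons merged. With merged exons Prlr was above Lhcgr in 8 of 10 libraries. Per kilobase of coding sequence Ghr, at 9.06, was above Fshr, at 8.44, in 10 of 10 libraries, and with merged exons Nr3c1, at 6.17, was above Esr1, at 5.52. Annotated lengths differ much for some receptors: Esr1 has 6339 bases in its longest transcript, 1797 of coding sequence and 13661 of merged exons, whereas Fshr has 1 transcript of 2360 bases. Which isoforms the libraries held is not given by a gene-level table.

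**Figure D3:**
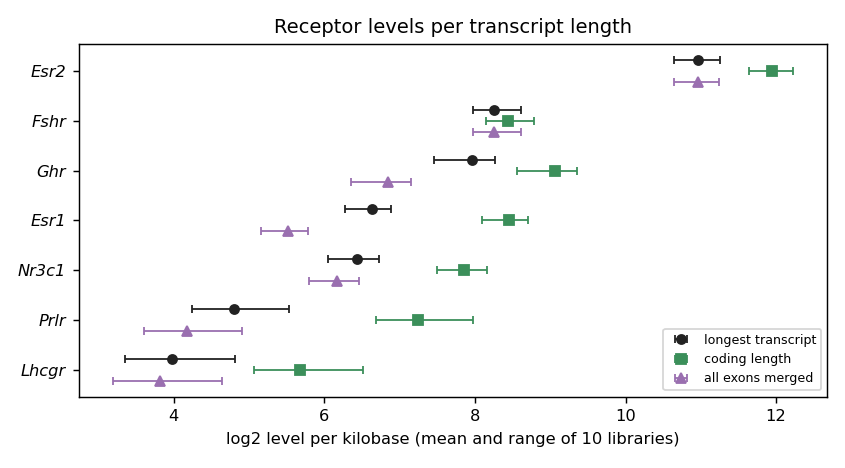
Log2 level per kilobase (horizontal axis) of the 7 receptors, as the mean with the range over 10 libraries, for 3 definitions of length. Esr2 is highest and Lhcgr lowest under each, and the order of the middle receptors depends on the definition.

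Over the 10 libraries 0 of 21 pairs of receptors had an adjusted p under 0.05, by Pearson's r or by rho. The largest r was that of Esr1 with Nr3c1 (r = 0.71, permutation p = 0.0227, adjusted 0.476; rho = 0.66, permutation p = 0.0442, adjusted 0.71; r = 0.70 without the 2 libraries farthest from the median of Esr1). Fshr and Lhcgr, the neighbouring genes, had r = -0.27 (permutation p = 0.456, adjusted 0.737) and rho = -0.31 (permutation p = 0.388, adjusted 0.71; r = -0.14 without the 2 farthest). Lhcgr with Esr2 depended on control replicate 1. Over all libraries it had r = -0.37 (permutation p = 0.305, adjusted 0.615) and rho = -0.59 (permutation p = 0.0807, adjusted 0.71; r = -0.72 without the 2 farthest). Without that library r was -0.81 (permutation p = 0.00759, adjusted 0.0797) and rho -0.90 (permutation p = 0.00201, adjusted 0.0422), which passes in that setting only.

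Lhcgr tracked the theca and interstitial markers. Against the mean of the 8 markers its r was 0.93 (permutation p = 0.00018, adjusted over 56 relations of receptors with 8 marker lists 0.0101) and its rho 0.88 (permutation p = 0.00159, adjusted 0.0448). The call by r held in 12 of 14 other settings and that by rho in 2, without Uba3 cKO replicate 1 or 3, with adjusted p for rho from 0.0162 to 0.414. Without control replicate 1 and Uba3 cKO replicate 4, the libraries farthest from the median of the markers, r was 0.76 (permutation p = 0.0318, adjusted 0.357), and without control replicate 1 alone 0.84 (adjusted 0.0870). Within groups, after subtraction of the group means, r was 0.93. Each of the 8 markers had a positive r with Lhcgr, given as a description over 10 libraries of whole ovaries: 0.91 for Cyp11a1, which makes pregnenolone from cholesterol, 0.87 for Cyp17a1, the androgen-synthesis enzyme, 0.78 for Insl3, a theca hormone listed near the filter, and 0.20 for Ptch1, the hedgehog receptor. Other marker lists had like values with Lhcgr over the same libraries. Smooth muscle markers had r = 0.81 (permutation p = 0.00411, adjusted 0.0767; rho = 0.85, permutation p = 0.00264, adjusted 0.0493; r = 0.64 without the 2 farthest), and passed by r as well without control replicate 4 (r = 0.92, adjusted 0.0070). Within groups they had r = 0.82 (permutation p = 0.00297, adjusted 0.0554) and rho = 0.95 (permutation p = 0.00015, adjusted 0.0084). The rho of theca and interstitial markers within groups was 0.87 (permutation p = 0.00239, adjusted 0.0669). These within-group p-values are approximate, because deviations were shuffled over all 10 libraries and not inside each group. Single smooth muscle markers ran from 0.04 for Des to 0.96 for Acta2. Stroma markers had r = 0.76 (permutation p = 0.00759, adjusted 0.105; rho = 0.68, permutation p = 0.0336, adjusted 0.195; r = 0.81 without the 2 farthest). Endothelium markers had r = 0.73 (permutation p = 0.0150, adjusted 0.105; rho = 0.78, permutation p = 0.0103, adjusted 0.116; r = 0.82 without the 2 farthest). The 2 farthest libraries differ between lists. For endothelium they are Uba3 cKO replicates 3 and 4, so control replicate 1 stays in. The r values without them are therefore not compared between lists. The part of these other lists in the relation of Lhcgr with theca and interstitial markers was not tested.

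Ghr ran against the granulosa marker mean, with r = -0.87 (permutation p = 0.00157, adjusted 0.0440) but rho = -0.68 (permutation p = 0.0348, adjusted 0.195). The relation rests on Uba3 cKO replicates 2 and 4, where granulosa markers were highest (13.18 and 13.25) and Ghr lowest. Without them r was -0.47 (permutation p = 0.248, adjusted 0.715). The call was also lost without any 1 of control replicates 2 and 3 and Uba3 cKO replicates 2, 3, 4 and 5, with adjusted p up to 0.182. Single markers did not share the sign, as a description: r was -0.81 for Wt1 and -0.76 for Inhbb, but 0.42 for Fst and 0.40 for Gja1.

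Over all 10 libraries the remaining receptors had no called relation with a marker list by Pearson's r, but 3 relations passed when 1 library was left out. Nr3c1 had r = 0.75 with granulosa markers (permutation p = 0.0121, adjusted 0.105; rho = 0.88, permutation p = 0.00160, adjusted 0.0448; r = 0.58 without the 2 farthest), and r = 0.89 without control replicate 1 (adjusted 0.0484). Single granulosa markers ranged from -0.57 for Amh to 0.89 for Inhbb. Its r with stroma markers was 0.75 (permutation p = 0.0148, adjusted 0.105; rho = 0.83, permutation p = 0.00481, adjusted 0.0673; r = 0.72 without the 2 farthest). Esr2 lay between 12.75 and 13.00 in the 4 libraries with oocyte marker means of 9.95 to 10.23. Of the 6 libraries with means of 10.54 to 10.80, 5 had Esr2 at 12.40 to 12.64 and control replicate 5 had it at 12.95. The pooled r was -0.77 (permutation p = 0.0127, adjusted 0.105; rho = -0.77, permutation p = 0.0124, adjusted 0.116; r = -0.62 without the 2 farthest), and each of the 9 oocyte markers had a negative r with Esr2, from -0.80 for Gdf9 to -0.50 for Figla. Without control replicate 5 it passed (r = -0.89, adjusted 0.0286). That library was the 1 that departed from the pattern, so no conclusion is drawn from leaving it out. The marker means lie on either side of a gap, and its part in the pooled r was not tested. Esr2 also had a negative r with each single marker of stroma, smooth muscle and endothelium. With those list means its r was -0.57, -0.57 and -0.61 (permutation test, adjusted p = 0.286 for each). Single granulosa markers ran from -0.87 for Foxl2 to 0.89 for Gja1 with Esr2, wider than the oocyte markers. Their list mean had r = -0.43 with Esr2 (permutation p = 0.217, adjusted 0.458). Fshr, Esr1, Prlr and Ghr likewise had a negative r with each of the 9 oocyte markers. Prlr, too, had a positive r with theca and interstitial markers, 0.70 (permutation p = 0.0269, adjusted 0.168). Its rho with them was 0.48 (permutation p = 0.167, adjusted 0.444), and r was -0.16 without the 2 farthest libraries. Esr1 had r = 0.63 with granulosa markers (permutation p = 0.0498, adjusted 0.254) and rho = 0.72 (permutation p = 0.0235, adjusted 0.188).

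Fshr passed in 0 of its 8 relations over all libraries. With stroma markers its r was -0.61 (permutation p = 0.0635, adjusted 0.286), and -0.37 without the 2 farthest libraries. The rho with stroma markers was -0.61 (permutation p = 0.0682, adjusted 0.343). Each single marker of stroma, smooth muscle and endothelium had a negative r with Fshr. With endothelium markers its r was -0.59 (permutation p = 0.0757, adjusted 0.286; rho = -0.55, permutation p = 0.105, adjusted 0.421), and -0.85 without the 2 farthest libraries (adjusted 0.207). Without Uba3 cKO replicate 4 it was -0.89 and passed (adjusted 0.0456).

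**Figure D4:**
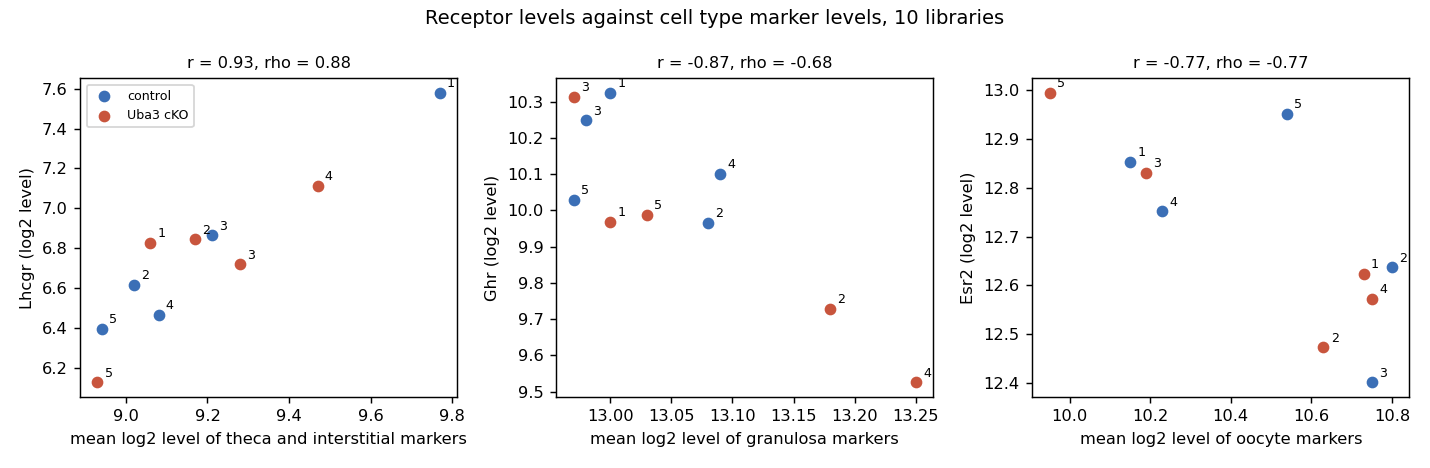
Receptor level (vertical axes, deposited log2 values) against the mean log2 level of a marker list (horizontal axes) in 10 libraries, numbered by replicate and coloured by group. Lhcgr climbs with theca and interstitial markers in both groups, Ghr falls mainly through Uba3 cKO replicates 2 and 4, and in the Esr2 panel control replicate 5 stands apart from the other libraries with more oocyte transcripts.

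**Figure D5:**
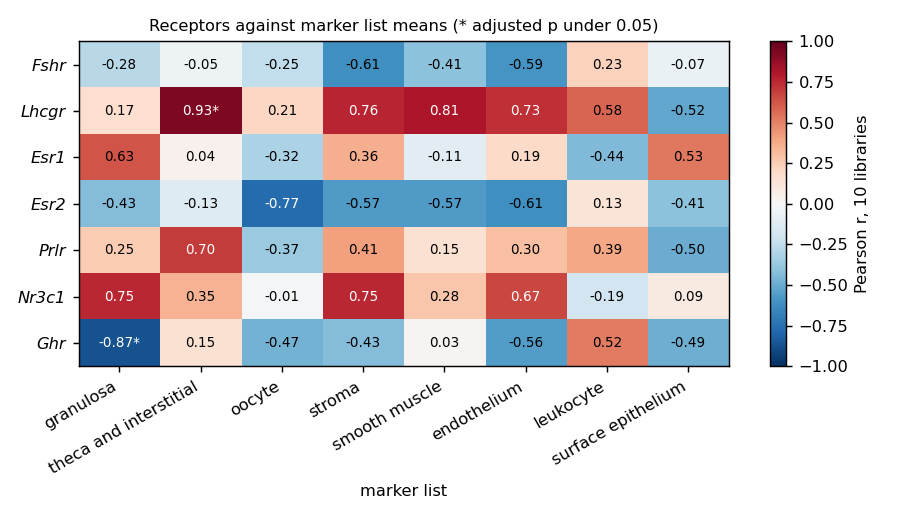
Pearson's r over 10 libraries between each receptor (rows) and the mean of each marker list (columns), from -1 in blue to 1 in red. Asterisks mark the 2 of 56 relations with an adjusted p under 0.05, Lhcgr with theca and interstitial markers and Ghr with granulosa markers.

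The slope of each library on transcript length was set beside the receptors, a comparison chosen after seeing the data. Control replicate 3 had the lowest slope, -0.179, against -0.0736 to 0.0686 in the others. None of the 7 receptors passed after adjustment. Prlr had r = 0.75 with the slope (permutation p = 0.0144, adjusted over 7 receptors 0.0536; rho = 0.72, permutation p = 0.0234, adjusted 0.164), and without control replicate 3 and Uba3 cKO replicate 1 with r = 0.43. Nr3c1 had r = 0.71 (permutation p = 0.0153, adjusted 0.0536; rho = 0.65, permutation p = 0.0499, adjusted 0.175), and without the same libraries with r = 0.62. For Lhcgr r was -0.01 (permutation p = 0.985, adjusted 0.985; rho = 0.05, permutation p = 0.891, adjusted 0.891; r = 0.32 without the same libraries). The part of the slope in the spread of Prlr and Nr3c1 was not tested.

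The genes whose patterns were most like each receptor were taken by Pearson's r of deviations from the group means over the 10 libraries. They were sought among 12357 genes with a mean log2 value of at least 5.64 (50 on the linear scale). These values are the highest of many and carry no test. For Lhcgr they were Acta2, smooth muscle actin and a member of the smooth muscle marker list (0.973), Vegfd (0.968) and Vcam1 (0.968). Like Lhcgr, all 3 were highest in control replicate 1 and lowest in Uba3 cKO replicate 5; Acta2 ran from 11.36 to 12.41. For Fshr the closest genes were Haus8 (0.883), Lin52 (0.880) and Crlf3 (0.873), the weakest likeness of the 7 receptors. Esr2 was closest to Cdkn1b (0.983), Usp6nl (0.980) and Bhlhb9 (0.978), and Esr1 to Syt7 (0.944), Mcmbp (0.942) and Lurap1 (0.939). Nr3c1 was closest to Bicc1 (0.980), Hspa12a (0.971) and Ptn (0.969). The genes nearest to Prlr were Abca1 (0.970), Napepld (0.964) and Zfp248 (0.951), with Abca1, like Prlr, lowest in control replicate 3 and highest in control replicate 1. Ghr was nearest to Rai2 (0.961), Trim45 (0.954) and Idh3b (0.950).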

How the data were processed

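The authors deposited 1 table of normalized log2 values, which run from -0.21 to 20.19; the file does not name the transform. Per the submitters' processing notes the build was GRCm39 and the tools included DESeq2, featureCounts, STAR and fastp, without versions or roles. TruSeq libraries of total RNA were sequenced on a NovaSeq, per the labels' protocols. No counts could be recovered, so depth and counting error are unknown. The median SD was 0.085 for genes with means of 2 to 4 and 0.174 for means of 6 to 8, so differences of low genes may be understated.

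Columns were matched to samples by the names in the labels. Symbols were found for 22188 of 22891 identifiers. Lengths came from GENCODE M21, built on GRCm38, and start regions from RefSeq (GRCm38.p6); both differ from GRCm39, and genes were joined by name. Receptor windows on chromosome 18 were left out, so the 6 receptors outside it were searched and Nr3c1 was not. Genes with a mean log2 value of at least 3.32 (10 on the linear scale) were tested in R 4.3.3 (limma 3.58.1, trended prior variance, no covariate). The adjustment of this fit was Benjamini-Hochberg at 0.05 over 15629 genes. Standard errors and 95% intervals come from that fit. Single values were compared by exact two-sided permutation tests (scipy 1.17.1), and correlations by two-sided permutation tests with 100000 resamples. Tests were checked on simulated data. In 10 runs with 200 shifted genes, limma recovered 9.6% of shifts of 0.25 log2 units and 63.4% of shifts of 0.5. Small differences would thus mostly go uncalled.

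The receptors and the gene lists were chosen with earlier results of these data known. Some genes are in more than 1 list (Igf1, Fkbp5, Pgr, Rara, Nr5a2, Cyp11a1 and Cyp17a1). Named genes were the 7 receptors, Uba3, from each pathway list up to 2 members in each direction at p under 0.05 or else the 2 with the smallest p, and the 3 genes most like each receptor; other genes were named after their values were seen. Alternatives were no filter, a mean log2 value of at least 5.64, quantile normalization, median centring, no trend, library quality weights and a replicate block. The length slope as a covariate, other lengths and leaving out each library were alternatives as well.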

Additional observations from a re-analysis of the deposited data

How the results depend on the processing

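In 18 alternative settings of the limma fit 0 of 7 receptors were called, and over all genes 1 gene was called in 1 setting, with the length slope as a covariate; it was Dip2c (adjusted p = 0.0142), named after its value was seen. Receptor differences near 0 changed sign with library quality weights, to 0.018 for Fshr, 0.011 for Lhcgr, -0.016 for Prlr, -0.0017 for Nr3c1 and -0.048 for Uba3. With quantile normalization Esr2 turned to 0.0025 and the balance of Esr2 over Esr1 to 0.014; with the length slope Prlr turned to -0.049 and Uba3 to -0.015; with median centring Uba3 turned to -0.0020. Leaving out 1 library turned the sign of 6 receptors, all but Ghr; the differences ran from -0.097 to 0.063 for Fshr, from -0.16 to 0.14 for Lhcgr, from -0.075 to 0.079 for Esr1, from -0.10 to 0.038 for Esr2, from -0.11 to 0.22 for Prlr, from -0.035 to 0.15 for Nr3c1, from -0.33 to -0.13 for Ghr and from -0.056 to 0.066 for Uba3. The balance of Fshr over Lhcgr ran from -0.18 to 0.22 and that of Esr2 over Esr1 from -0.11 to 0.095. Ghr was lower under the Uba3 cKO label in all 18 settings. Among these, no filter, a mean log2 value of at least 5.64, no trend and a replicate block leave the difference of the main fit unchanged. The cause of the changes in the other settings was not tested.

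Called relations with marker lists numbered 2 by r and ran from 1 to 3 leaving out 1 library. They were 0 without the 2 libraries farthest from the median of the markers, where 8 libraries are left. Over all libraries 3 passed by rho, Lhcgr with theca and interstitial markers, Lhcgr with smooth muscle markers and Nr3c1 with granulosa markers. In the other 14 settings these passed by rho in 2, 2 and 1. By r, Lhcgr with theca and interstitial markers was called in 12 of 14 settings and Ghr with granulosa markers in 7 of 14. Leaving out 1 library added, by r, Nr3c1 with granulosa, Esr2 with oocyte, Fshr with endothelium and Lhcgr with smooth muscle markers, each in 1 setting. By rho it added the pair of Lhcgr and Esr2. Adjusted p-values of the relations covered 1 setting and 1 measure at a time, not all settings searched. Same-numbered libraries of the groups had correlations of their deviations from -0.27 to 0.28, so the numbers were not read as pairs; with a replicate block 0 receptors were called and Ghr had an unadjusted p of 0.0365. Unknown depth limits all values, most so for Insl3 and other low genes.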
